A study of Mus musculus with 6 samples.

Results

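The genes examined here, called Z-disc genes, mostly encode proteins that anchor and crosslink the thin filaments at the borders of the sarcomere. The set holds the 4 α-actinin genes Actn1, Actn2, Actn3 and Actn4, and the calsarcin genes Myoz1 and Myoz3. Also in it are the titin-cap gene Tcap, the PDZ-LIM gene Ldb3 and the myotilin gene Myot. Actn1 and Actn4 encode non-muscle α-actinins and are counted with the others under this name. These 9 genes were chosen by name, with earlier results of these data known. They were taken out of 21827 protein-coding genes in the GENCODE annotation of GRCm38. For each gene, the ChIP-seq peaks lying in the gene or within 50 kb of a transcript start were collected, a stretch called the locus below.

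Chromatin came from nuclei of gastrocnemius and quadriceps, limb muscles rich in fast fibers, of wild-type (WT) mice at 2 months of age, with no treatment or allele that differs between samples. Of 6 samples, 2 were precipitated with an antibody to Maf, 2 with an antibody to acetylated lysine 27 of histone H3 (H3K27ac), and 2 were inputs, which were not used here. Samples of a target are called biological replicates in the labels, and peaks were deposited for each sample separately. The lists hold positions without read counts, so the depth of each library is unknown and values are given as descriptions of the 2 lists per target, without a test.

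Z-discs join neighboring sarcomeres, and α-actinin crosslinks the actin filaments that enter from both sides. Calsarcins, telethonin (the product of Tcap), the Ldb3 protein and myotilin bind α-actinin, titin or filamin there, and some of these proteins are specific to fast or slow fibers. Maf is a large bZIP transcription factor whose full recognition element is made of 2 mirrored half-sites with the core TGCTGA, and H3K27ac marks active promoters and enhancers.

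The Maf libraries were far apart. The list of replicate 1 held 74 peaks of 181 bp and the list of replicate 2 held 5467 peaks of 281 bp, and 55 peaks of replicate 1 overlapped a peak of replicate 2. Every Maf peak at the Z-disc genes came from replicate 2 (13 peaks against 0), and without that library each Maf count of these 9 genes was 0. The H3K27ac lists were similar in size, with 44887 and 44987 regions, and 81.3% of the regions of replicate 1 overlapped one of replicate 2. As a check of the tissue, promoters (stretches of 1 kb upstream and downstream of a start) of 8 of 8 skeletal muscle marker genes carried H3K27ac, and those of 0 of 5 liver and 0 of 4 neuronal marker genes did. The share among all protein-coding genes was 58.3%. The mark was also found at 5 of 5 endothelial, 4 of 4 fibroblast, 4 of 4 macrophage and 5 of 6 smooth muscle and pericyte marker genes. The part of such cells in the signal at the Z-disc genes was not tested, and in whole muscle more nuclei carrying a mark and more of it per nucleus cannot be told apart.

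Of the 9 Z-disc genes, 2 (Actn3 and Ldb3) had a Maf peak with at least 1 base within 1 kb of a start. Among all protein-coding genes the share with such a peak was 4.71%. Within 10 kb the count was 3 of 9, with Myoz1 added, beside 10.2% of all genes. In the whole locus it was 7 of 9, beside 30.6% of all genes, a share that grows with gene length. Actn1 and Actn2 were the members without a Maf peak in the locus. The 13 peaks were 2 each at Actn3, Actn4, Ldb3 and Myot, 3 at Myoz1, and 1 each at Myoz3 and Tcap. For 7 of the 13, the nearest protein-coding transcript start was that of the Z-disc gene itself. Introns of a member held 6 of the peaks, and none lay in an exon of a member.

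**Figure D1:**
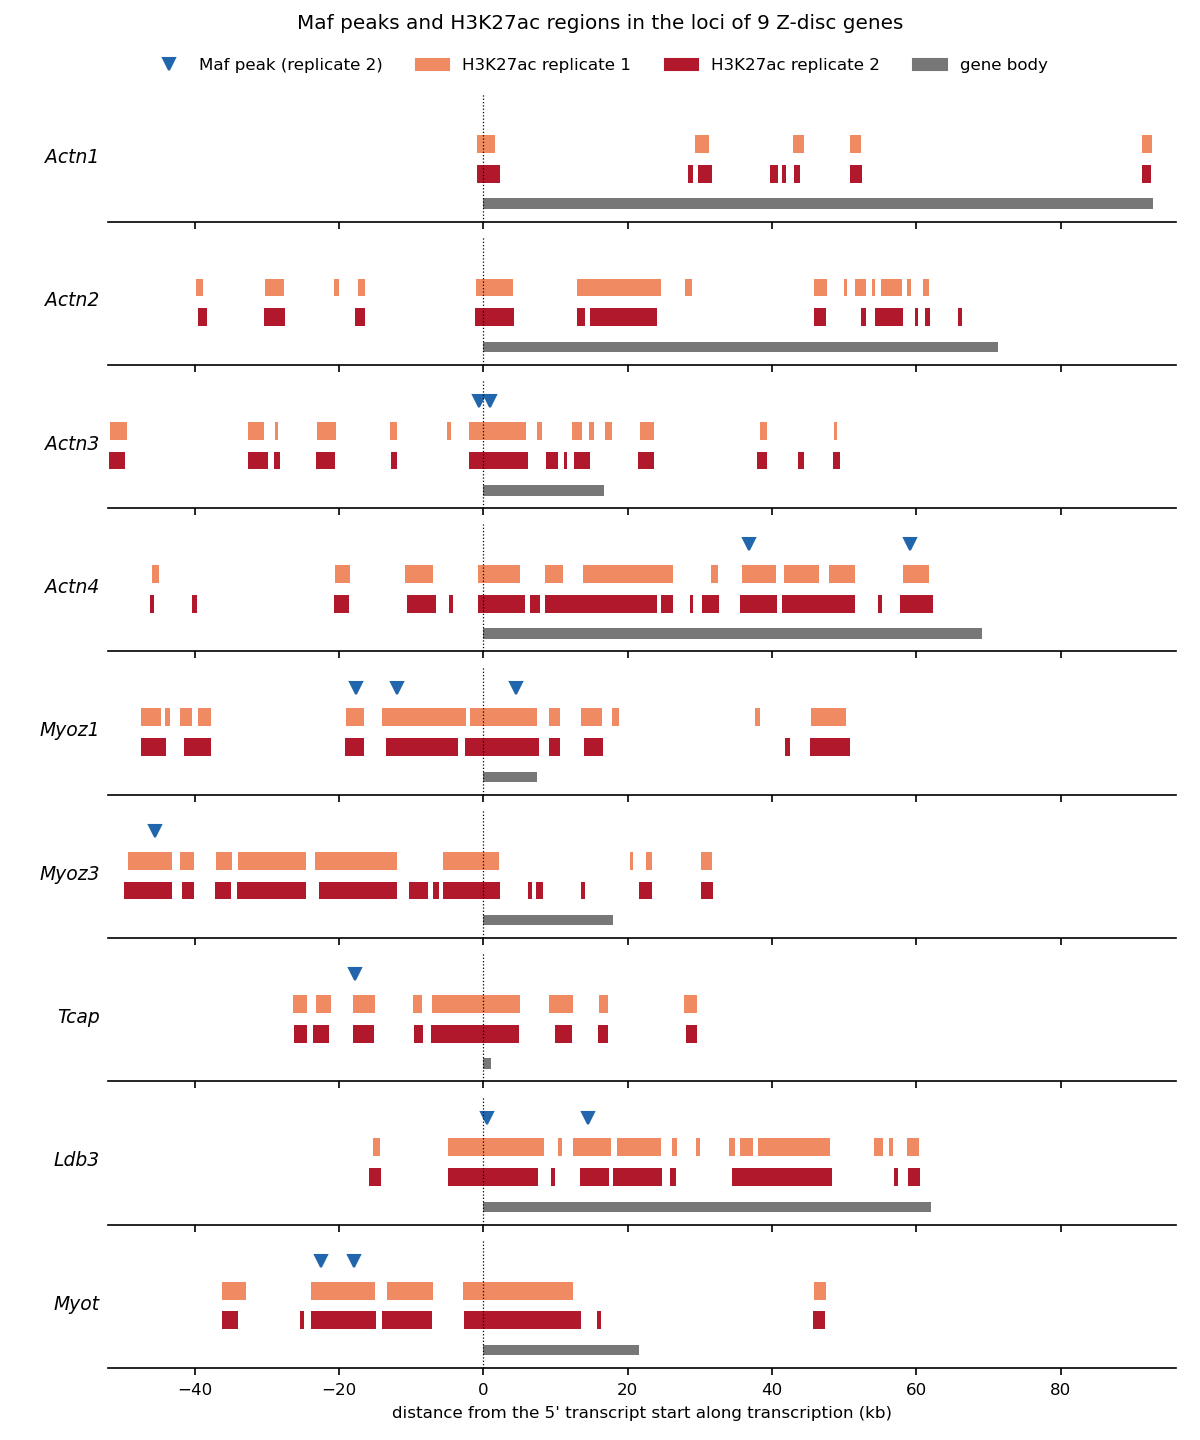
Position of Maf peaks of replicate 2 (triangles) and H3K27ac regions of replicates 1 and 2 (bars) at 9 Z-disc genes, in kb from the 5′ transcript start along transcription, with the gene body in gray. Maf peaks sit at the starts of Actn3 and Ldb3 and at a distance at Actn4, Myoz3, Tcap and Myot, the loci of Actn1 and Actn2 hold none, and H3K27ac covers the start of 9 of 9 genes in both replicates.

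The 4 peaks within 10 kb of a member's start belonged to Actn3, Ldb3 and Myoz1, and their whole sequences are shown because each holds the Maf core. All are read from the GRCm38 genome on the minus strand, which is the coding strand of these genes, and capitals mark TGCTGA on either strand (TCAGCA is the same word on the opposite strand).
Actn3, upstream peak, chr19:4878295-4878575: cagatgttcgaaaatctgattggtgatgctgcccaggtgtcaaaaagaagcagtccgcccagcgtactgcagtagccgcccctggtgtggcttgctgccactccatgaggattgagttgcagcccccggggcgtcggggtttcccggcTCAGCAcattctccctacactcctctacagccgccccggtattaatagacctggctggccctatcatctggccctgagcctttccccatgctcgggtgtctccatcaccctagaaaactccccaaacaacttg
Actn3, peak in intron 1, chr19:4876848-4877128: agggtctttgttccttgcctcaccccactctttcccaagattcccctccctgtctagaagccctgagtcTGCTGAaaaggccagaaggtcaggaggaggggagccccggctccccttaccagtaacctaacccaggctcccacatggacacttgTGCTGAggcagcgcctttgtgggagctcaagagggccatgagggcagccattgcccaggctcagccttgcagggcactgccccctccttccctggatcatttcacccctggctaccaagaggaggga
Ldb3, peak in intron 1, chr14:34587999-34588279: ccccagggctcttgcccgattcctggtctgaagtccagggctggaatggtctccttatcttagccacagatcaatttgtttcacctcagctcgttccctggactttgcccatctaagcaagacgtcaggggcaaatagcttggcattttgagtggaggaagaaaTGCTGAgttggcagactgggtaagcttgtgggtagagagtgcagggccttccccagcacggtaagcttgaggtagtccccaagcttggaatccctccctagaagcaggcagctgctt
Myoz1, peak in intron 3, chr14:20651797-20652077: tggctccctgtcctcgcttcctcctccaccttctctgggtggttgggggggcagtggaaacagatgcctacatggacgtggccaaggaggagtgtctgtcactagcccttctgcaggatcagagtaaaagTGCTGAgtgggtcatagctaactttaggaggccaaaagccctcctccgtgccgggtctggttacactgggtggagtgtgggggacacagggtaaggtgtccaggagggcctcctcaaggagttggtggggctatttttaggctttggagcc

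Of the α-actinin genes, Actn3, whose protein is found in fast fibers, had the Maf peaks closest to its start. The study, from the same ChIP-seq data, had already listed the Actn3 promoter among its most strongly Maf-bound loci. Actn3 spans chr19:4861216-4877909 on the minus strand and has 21 exons. The upstream peak was centered at -526 bp from the start and stood at position 61 of 5467 in the list of replicate 2. Its nearest start was that of Zdhhc24, a palmitoyltransferase gene, at -237 bp, so the peak lies between these neighboring starts and its target cannot be told apart by position. The other peak lay in intron 1 at +921 bp, with the Actn3 start as the nearest, and stood at position 124. The upstream peak held TGCTGA once, 10 bp from its center, and the intronic peak held it at 16 and -68 bp from its center, as seen in the sequences above. Both peaks fell into the same H3K27ac region, which was 7943 bp long in replicate 1 and 8122 bp in replicate 2.

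Actn4, which encodes a widely expressed non-muscle α-actinin, had Maf peaks far inside the gene. The gene spans chr7:28893248-28962340 on the minus strand. A peak in intron 1 lay at +36845 bp and position 1862, and it held no TGCTGA. A further one in intron 11 lay at +59165 bp and position 2794, the lowest position of the 13, and its nearest start was that of Capn12, a calpain gene, at +21753 bp from it. The intron 11 peak held TGCTGA, 8 bp from an E-box CAGCTG, measured between the centers.

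Actn2, the α-actinin of muscle fibers of all types and of the heart, had no Maf peak in its locus, and neither did Actn1, a non-muscle α-actinin. The nearest peak was 135737 bp from the Actn1 start, on its downstream side, with the Zfp36l1 start nearest to it. For Actn2 it was 1614001 bp away, beside B3galnt2. The median distance from a start to the nearest peak was 124756 bp among the 21644 genes on chromosomes with a peak. With the depth unknown, a peak that was not called does not show the absence of binding.

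Myoz1, the calsarcin gene of fast fibers, had the most Maf peaks of the set. It spans chr14:20649107-20656540 on the minus strand. The peak in intron 3 was centered at +4603 bp from the start and stood at position 254. The remaining peaks lay upstream at starts of other genes. The peak at -11947 bp was -133 bp from the start of Synpo2l, which encodes a synaptopodin-like Z-disc protein, and stood at position 1746. The peak at -17575 bp lay -193 bp from the start of Sec24c, a subunit gene of the COPII coat, at position 518. Each of the 3 Myoz1 peaks held the Mef2 sequence, an AT-rich site of the Mef2 transcription factors, and the intronic and Sec24c peaks also held TGCTGA.

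Myoz3, a further calsarcin gene expressed in fast fibers, had 1 Maf peak at the edge of its locus. It lay at chr18:60637173-60637453, -45525 bp from the Myoz3 start and in intron 1 of Synpo, the synaptopodin gene, whose start was nearer (-7460 bp). The peak stood at position 935 and held no TGCTGA. It held the AP-1 word TGACTCA, a site bound by Fos and Jun bZIP proteins, 24 bp from its center. No peak was within 10 kb of the Myoz3 start.

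Tcap, whose product caps the amino-terminal ends of titin, also had its peak inside another gene. The peak at chr11:98365874-98366154 lay in intron 1 of Stard3, a cholesterol transport gene, at -17797 bp from the Tcap start and +7646 bp from that of Stard3. It stood at position 2338. The short gene itself, chr11:98383811-98384953 on the plus strand with 2 exons, held no Maf peak.

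Ldb3, which encodes an α-actinin-binding PDZ-LIM protein, had Maf peaks in introns 1 and 3. The gene spans chr14:34526603-34588682 on the minus strand and has 15 exons. The peak in intron 1 was centered at +342 bp from the 5′ start and stood at position 1325. The peak in intron 3 lay at +14278 bp, at position 1589. Ldb3 was the only member with a Maf peak within 1 kb whose start was also the nearest to all of its peaks, since the upstream Actn3 peak was nearer to Zdhhc24.

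Myot, the gene of the α-actinin- and filamin-binding protein myotilin, had its Maf peaks upstream and none in the gene. They lay at chr18:44311410-44311690 (-22524 bp, position 1351) and chr18:44316071-44316351 (-17863 bp, position 1609), with the Myot start nearest to both. A common H3K27ac region held the pair, with a length of 8880 bp in replicate 1 and 8927 bp in replicate 2. The upstream one held TGCTGA at -126 and -3 bp from its center, and the other held it once, at 37 bp.

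In the order of the replicate 2 list, which the files do not state to be an order of strength, the 13 peaks had a median position of 1351. Of these, 4 stood in the first 10% of the list, namely both Actn3 peaks, the intronic Myoz1 peak and the Sec24c peak, and 12 of 13 came before its midpoint. The exception was the intron 11 peak of Actn4. Peaks with the member's own start nearest ranged from position 124 to 1862, and those nearer to another gene from 61 to 2794, so these groups overlapped.

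**Figure D2:**
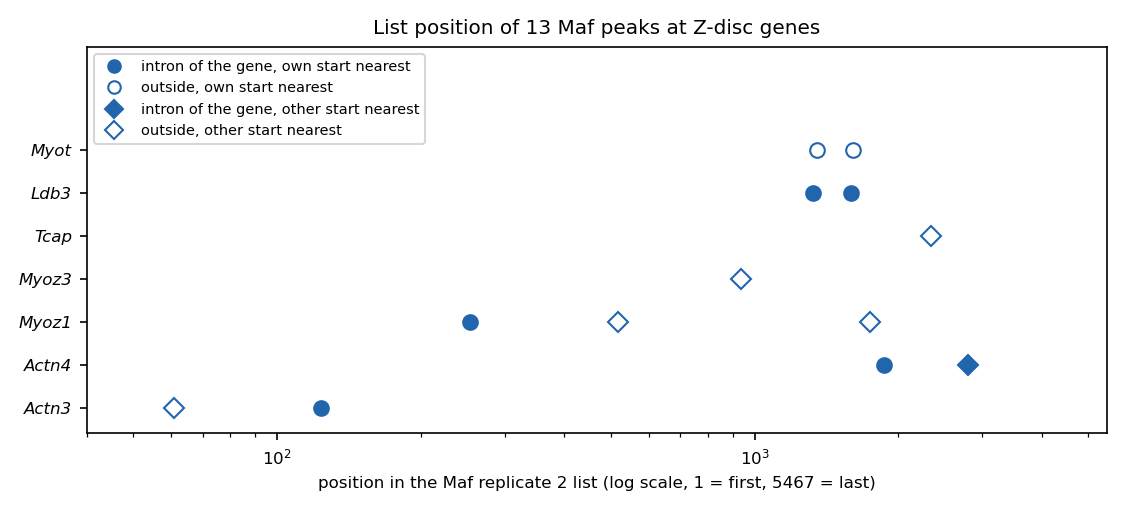
Position of each of the 13 Maf peaks in the list of replicate 2 (log scale, 1 is the first of 5467) by Z-disc gene, with filled marks for peaks in an intron of the gene and diamonds where the start of another gene is nearer. The Actn3 peaks stand first, at 61 and 124, and the intron 11 peak of Actn4 last, at 2794.

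The Maf peaks of the Z-disc genes lay in acetylated chromatin. All 281 bp of 13 of 13 peaks were covered by H3K27ac in replicate 1 and again in replicate 2. Among all 5486 joined Maf peaks, 69.1% shared at least 1 base with an H3K27ac region of either replicate. By that looser measure the count at the Z-disc genes was also 13 of 13. The H3K27ac regions holding the 13 peaks were between 2580 and 13252 bp long in replicate 1 and between 2506 and 12449 bp in replicate 2. The shortest in both was that of the Sec24c peak and the longest that of the intron 1 peak of Ldb3.

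TGCTGA, searched on both strands, was present in 10 of the 13 peaks, with 12 sites, beside 50.8% of all replicate 2 peaks. The longer half-site TGCTGAC, which contains it, was present in 2 of 13, those of Tcap and of Ldb3 intron 3, beside 22.8%. To compare the sites with those in the whole peaks above, the remaining ones of the Actn4, Myoz1, Tcap and Ldb3 loci are shown 5′ to 3′ in the direction of TGCTGA, which is in capitals, with the GRCm38 strand of each.
Actn4, intron 11, chr7:28903103-28903132, minus strand: tgccagttcccTGCTGAaacagctgaggct
Myoz1, peak at Sec24c, chr14:20674144-20674173, minus strand: ctgtaaagtatTGCTGAgtttcatgctttt
Tcap, peak in Stard3, chr11:98366006-98366035, minus strand: tgcctcccaagTGCTGActacacatcagtg
Ldb3, intron 3, chr14:34574226-34574255, plus strand: tgtttggccagTGCTGAcagctgcagggtc

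The base after TGCTGA was G in 7, A in 3 and C in 2 of the 12 sites. Among 3567 sites in all replicate 2 peaks it was G in 36.7%, C in 38.1%, T in 13.4% and A in 11.8%. In palindromic Maf elements the mirrored word TCAGCA follows after 1 or 2 bases. With 1 base between, the 12 sites matched a median of 3 of its 6 letters, beside 2 among all sites. At least 4 letters matched at 4 of 12 sites, in the intron 1 peaks of Actn3 and Ldb3, the intron 11 peak of Actn4 and the upstream Myot peak, beside 16.3% of all sites. With 2 bases between, the median was 1.5 letters, beside 1 among all sites, and at least 4 letters matched at 1 of 12 sites, in intron 3 of Ldb3, beside 7.12%. All 6 letters matched at 0 of 12 sites with either spacing, and at 26 and 16 of the 3567 sites. The comparison of the base after the core and of the mirrored word was chosen after the sites had been seen.

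Sites of muscle transcription factors were found in the same peaks. The E-box CAGCTG, a word bound by myogenic bHLH factors, was in 5 of 13 peaks, beside 24.3% of all replicate 2 peaks, and lay in the intron 11 peak of Actn4, the Sec24c peak, both Ldb3 peaks and the nearer Myot peak. The general form CANNTG, which includes it, was in 13 of 13, beside 78.0%. In intron 3 of Ldb3, CAGCTG began at the final C of TGCTGAC, as the sequence above shows. The Mef2 sequence was in 4 of 13 peaks, the 3 of Myoz1 and the upstream Myot peak, beside 7.68%. TGACTCA was in 2 of 13, those of Myoz3 and the upstream Myot peak, beside 11.5%. In the Myot peak it overlapped TGCTGA by 3 letters. The Tead word CATTCC (MCAT) was in 3 of 13, in the intron 1 peaks of Actn4 and Ldb3 and the upstream Myot peak, beside 15.3%. The SRF CArG box was in 0 of 13, beside 1.65%. A match is a run of letters and does not show that the factor was bound. The median GC content of the 13 peaks was 52.7%, with a range of 38.4% to 60.1%, beside a median of 49.5% over all replicate 2 peaks.

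**Figure D3:**
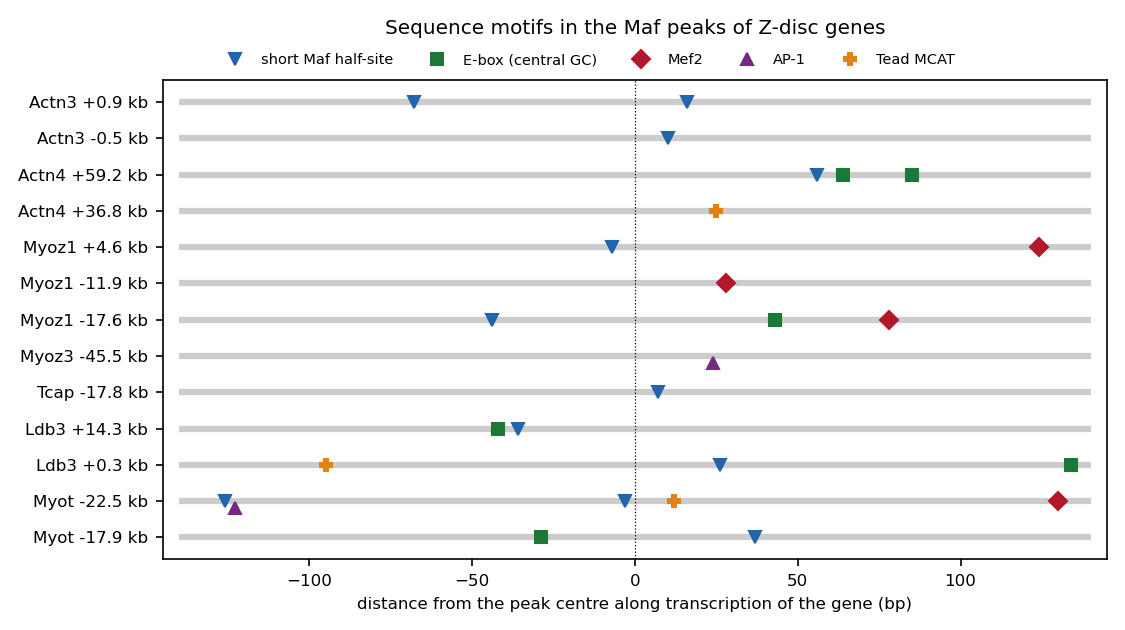
Sites of 5 sequence motifs in the 13 Maf peaks of the Z-disc genes, in bp from the peak center along transcription of the gene, with each gray line standing for the 281 bp of a peak and its label giving the distance to the gene's start in kb. Of the 13 peaks, 10 hold TGCTGA (short Maf half-site), and the Mef2 sequence appears in the 3 peaks of Myoz1 and in 1 of Myot.

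The promoters proper, taken as 250 bp before to 50 bp after the 5′ start, held none of the Maf words. TGCTGA was in 0 of 9, beside 18.0% of all promoters of the same length, and TGCTGAC likewise, beside 4.02%. CAGCTG was in 2 of 9, at -59 bp in Myoz3 and at -37 bp in Myot, beside 15.7%. The Mef2 sequence was in Myoz1 at -31 bp (2.86% of all promoters) and the CArG box in Ldb3 at -34 bp (1.48%). TGACTCA was in Ldb3 at -94 bp, beside 4.59%, and CATTCC in Actn4 at -208 bp, beside 13.5%. CANNTG was in 7 of 9, beside 70.1%, and Actn3 and Ldb3 lacked it. In 1001 bp around the start, the observed over expected CpG ratio was 0.907 for Actn4 and 0.674 for Actn1, above the median of 0.552 over all genes. It was 0.515 for Actn2, 0.370 for Actn3 and 0.261 for Tcap, and it was lowest for Myot at 0.122. Myoz1, Myoz3 and Ldb3 lay between 0.177 and 0.232. Thus the non-muscle α-actinin genes started in more CpG-rich sequence than the 7 sarcomeric members.

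The promoters of 9 of 9 Z-disc genes carried H3K27ac in both replicates, beside 58.3% of all genes. The members differed in how far the mark reached. Tcap, Ldb3 and Myoz1 were almost filled with H3K27ac within 5 kb of the 5′ start, and Actn1 was the least covered. For Tcap, 100% of the bases were covered in replicate 1 and 99.5% in replicate 2, and for Ldb3 99.0% and 99.2%. For Myoz1 the values were 95.0% and 90.7%. The next genes were covered over most, but not all, of the window. Myot had 78.7% and 76.1%, Myoz3 71.4% and 73.4%, and Actn3 75.4% and 69.1%. The remaining α-actinin genes came last. Actn4 had 57.2% and 62.3%, Actn2 51.7% and 54.9%, and Actn1 25.1% and 30.8%. Along this order of means, the replicates of neighboring genes overlapped only for Myoz3 and Actn3, with means of 72.4% ± 1.39 and 72.3% ± 4.43 (SD, n = 2). The median over all genes was 11.8% in replicate 1 and 12.6% in replicate 2, and the 90th percentile 45.2% and 46.6%. Of the members, 8 were above that percentile in both replicates, and Actn1 was below it, at percentiles 75.3 and 80.0. Among the genes with H3K27ac within 1 kb of a start, the 90th percentile was 55.8% and 57.6%. Actn2 and Actn1 were below that in both replicates. These windows can also hold starts of other genes. The Zdhhc24 start, which also carried H3K27ac, lies in the window of Actn3, so the part of each gene in this cover cannot be told apart.

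**Figure D4:**
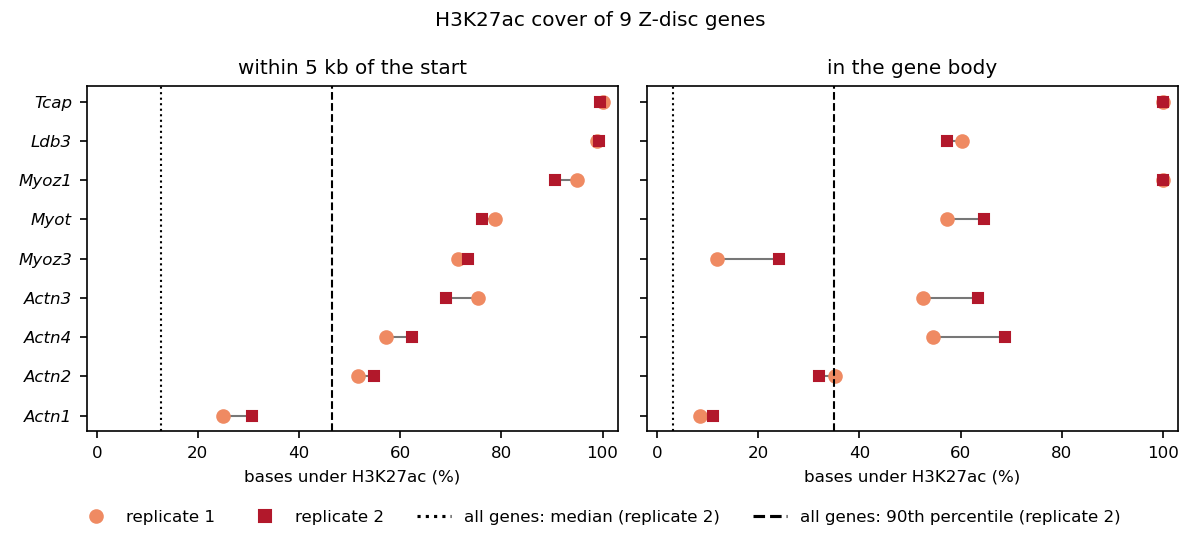
H3K27ac cover of 9 Z-disc genes in replicate 1 (circles) and replicate 2 (squares), as percent of bases within 5 kb of the 5′ start (left) and in the gene body (right), with the median and 90th percentile of all genes in replicate 2 as lines. Near the start Tcap, Ldb3 and Myoz1 lie above 90% and Actn1 below 31%, and in the body Myoz3, Actn1 and replicate 2 of Actn2 lie below the 90th percentile.

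The region over the start was longest at Myot, with 15285 bp in replicate 1 and 16110 bp in replicate 2 (from -2872 to 12412 bp in replicate 1). It was 13252 and 12449 bp at Ldb3, 12180 and 12210 bp at Tcap, and 9352 and 10243 bp at Myoz1. At Tcap and Myoz1 this region contained the whole gene (100% of the body in both replicates). For Actn3 it was 7943 and 8122 bp and for Myoz3 7699 and 7894 bp. The Myoz3 region of replicate 1 reached from -5558 to 2140 bp, so most of it lay upstream of the gene. At Actn4 it was 5791 and 6481 bp, and at Actn2 5167 and 5492 bp. Actn1 had the shortest, with 2507 and 3080 bp, beside a median of 1137 and 1168 bp over all genes, which include genes without a region. Among the genes with H3K27ac within 1 kb of a start, the median was 2023 and 2107 bp. The order of the 9 genes by this length differed from the order by cover within 5 kb, and Myot, the longest, came after Tcap, Ldb3 and Myoz1 by cover.

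In the gene body, Actn4 was covered at 54.6% and 68.8%, Actn3 at 52.6% and 63.5%, Ldb3 at 60.2% and 57.4%, and Myot at 57.3% and 64.7%. The body of Actn2 was covered at 35.1% and 31.9%, much of it by a block from 13024 to 24612 bp downstream of the start in replicate 1 (11589 bp). In replicate 2 this block was split, with a main piece of 9320 bp. No Maf peak lay in it. Myoz3 and Actn1 had the least, at 11.9% and 24.2% and at 8.50% and 11.1%. The Myoz3 and Actn4 values changed most between replicates, with means of 18.0% ± 8.72 and 61.7% ± 10.0 (SD, n = 2). In all loci together there were 91 regions in replicate 1 and 94 in replicate 2, and 84.6% and 75.5% of them overlapped a region of the other replicate, beside 81.3% and 80.2% of all regions. At Tcap, 8 of 8 regions were shared in both directions.

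Other genes of the Z-disc and costamere had Maf peaks in places like those of the members. Of 38 such genes, 11 had a peak within 1 kb (4.71% of all genes), 14 within 10 kb (10.2%) and 22 in the locus (30.6%). H3K27ac lay within 1 kb of a start in 36 of the 38, beside 58.3% of all genes. Among the first by list position were Plec, the plectin gene, at 132 (-7 bp), Ttn, the titin gene, at 240 (-48 bp), Neb, the nebulin gene, at 1492 (-260 bp), and Synpo2 at 1647 (790 bp). Synpo2l (1746), Mypn (2106) and Trim54 (2258) were also among them, and the Synpo2l peak is the one counted at Myoz1. Myoz2, the calsarcin gene of slow fibers and heart, had no Maf peak in its locus (50334 bp to the nearest), and its H3K27ac cover within 5 kb was 16.7% and 17.0%, less than at Myoz1 and Myoz3 in either replicate. A list of 11 genes, called fast genes here, held mostly genes of thin filaments and light chains. Not all are particular to fast fibers, since it includes Acta1, which also served as a general skeletal muscle marker. Of these 11 genes, 2 had a peak within 1 kb, 7 within 10 kb and 11 in the locus. The 2 were Mybpc2, a myosin-binding protein gene, at position 822 and Myl1 at 1991. Of 12 slow fiber genes of the sarcomere and of calcium handling it was 1 within 1 kb, 2 within 10 kb and 6 in the locus. The 1 within 1 kb was Atp2a2, the slow calcium pump, at 4347. The shares of all genes given above apply to the fast and slow lists too. From Maf replicate 1 alone, the fast list had 0 genes with a peak within 1 kb, 1 within 10 kb and 2 in the locus. The slow list and the other Z-disc genes had 0 in each of these windows. The median cover with H3K27ac within 5 kb was 75.4% and 73.4% for the 9 members, 51.2% and 56.5% for the other Z-disc genes, 91.4% and 94.0% for the fast genes, and 17.1% and 23.7% for the slow genes, in replicates 1 and 2. These lists were chosen with results of the same data known, and their differences were not tested.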

How the data were processed

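Per the labels, Maf and H3K27ac were mapped by ChIP-seq in nuclei from gastrocnemius and quadriceps of WT mice. The submitters' processing notes name bcl2fastq 2.17, Bowtie2 2.3.2, Picard 2.10.3, FastQC and HOMER. The authors called peaks in each sample and deposited them as positions in 6 columns. The study states a false discovery rate for its number of Maf peaks. Whether it holds for each list, the other settings of the caller and the use of the input are not given in the sources used here. The score column deposited by the authors is 1 for every peak, so the place in the list was given instead. The lists hold no counts, and depth is unknown.

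Replicates were joined where peaks overlapped or touched, and 1 shared base counted as overlap. Starts were the 41433 starts of 21827 protein-coding genes in GENCODE M21 (basic annotation, GRCm38). Motifs were searched on both strands of the GRCm38 genome. CpG and promoter windows used the 5′ start. The Mef2 sequence and CArG box were searched in their usual degenerate forms, and TGACTCA includes its reverse complement. The overlap, window and motif procedures were tested on simulated positions and sequences. No count or set test was made, since the lists give 1 set of positions per sample.

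The text names the 9 genes, the gene with the start nearest to each of their Maf peaks, and from each comparison list up to 8 genes with a Maf peak within 1 kb by list position. The result for 1 gene named by this rule is not reported here. Myoz2, and the genes beside the peaks nearest to Actn1 and Actn2, were named in addition, after their values were seen. Members and lists were chosen with earlier results of these data known. Alternatives were leaving out each library, the 5′ end only, loci of 25 and 100 kb and nearest starts only. The Maf replicate 2 list was also cut at its midpoint, though its order is not stated to be one of strength. Further alternatives were stricter overlap, a replicate block, a shorter motif window and, added after seeing the data, all GENCODE transcripts. The analysis used Python 3.11.15, numpy 2.4.6, pandas 2.3.3 and matplotlib 3.10.9.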

Additional observations from a re-analysis of the deposited data

How the results depend on the processing

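The Maf counts rest on replicate 2. Leaving out 1 Maf library gave 0 to 2 Z-disc genes with a Maf peak within 1 kb, 0 to 3 within 10 kb and 0 to 7 in the locus, and 0 to 13 Maf peaks in the loci, 0 to 13 of them with H3K27ac and 0 to 10 with TGCTGA. In each case 0 is the count without Maf replicate 2, whose list alone holds these peaks. Counting only peaks whose nearest start belongs to the Z-disc gene left 7 of 13 peaks and 5 genes in the locus, by construction. With loci of 25 kb the counts were 6 genes and 12 peaks, and with 100 kb 7 genes and 17 peaks. With all GENCODE transcripts, an alternative chosen after seeing the data, 4 genes had a peak within 10 kb and 14 peaks lay in the loci. Shares over all genes are not given for the nearest-start, 25 kb, 100 kb and all-transcript alternatives. Their gene counts therefore have no reference here. In the replicate block, Maf peaks were set against H3K27ac regions of the same replicate number, and 13 of 13 peaks overlapped. This outcome was fixed in advance, since all 13 came from Maf replicate 2 and lay in H3K27ac regions of replicate 2. Of 42 recomputed counts, 35 stayed within 1.5 times the reported one, and the others are those given above. Several of the 35 could not have moved, so this tally does not measure stability. Maf replicate 1 held none of these peaks, so leaving it out changed nothing. Each H3K27ac replicate covered 13 of 13 peaks in full, which fixed the overlap counts when a replicate was left out or the overlap made stricter. For H3K27ac cover, leaving out a replicate leaves the value of the other, which says nothing about stability beyond the replicate values themselves. The cover of the Myoz3 body, with a mean of 18.0%, was then 11.9% to 24.2%, and without replicate 2 it moved by over 1.5 times. Depth is unknown, so a peak that was not called is not evidence of absent binding.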
